A study of Mus musculus with 2 samples.

Results

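Chemokines and chemokine receptors were examined in RNA sequencing of colon lamina propria regulatory T cells (Treg cells, the suppressive CD4 lineage that Foxp3 specifies) from female mice. The members are all protein-coding genes of the deposited table whose symbol starts with Ccr, Cxcr, Xcr, Cx3cr, Ackr, Ccl, Cxcl, Xcl or Cx3cl followed by a digit. This name rule, which uses no measured value, found 67 of 55246 loci, of which 23 are receptors and 44 are ligands. The ligand loci carry 38 symbols, because Ccl19, Ccl21 and Ccl27 genes have copies on unplaced scaffolds. The libraries are 1 from WT cells and 1 from Exon2KO cells, whose Foxp3 allele lacks exon 2. Strain, age, sorting scheme and the number of mice behind a library are not given in the sources used here, and no treatment is named for either group. With 1 library per genotype no difference has a replicate check, and genotype cannot be told apart from any other difference between the 2 libraries.

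Chemokines are small secreted proteins that attract cells bearing the matching receptor, a membrane protein that signals through Gi proteins. Inflammatory chemokines are induced in injured or infected tissue, whereas homeostatic ones place lymphocytes in lymphoid organs and barrier tissues. Atypical receptors (the Ackr genes) bind chemokines without Gi signalling and mostly remove them. In the colon, Treg cells use such receptors to enter the mucosa and to take up positions near lymphoid follicles, epithelium or vessels.

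Gene-assigned reads numbered 16281133 for WT and 15412425 for Exon2KO. For a gene with 0 reads the limit is 3 reads, or 0.191 CPM in WT and 0.188 CPM in Exon2KO (CPM, counts per megaread of the scaled library). Foxp3 itself had 6991 reads in WT and 20946 in Exon2KO (445 and 1310 CPM), and a count over the whole gene does not check the loss of 1 exon. T cell markers (Cd3e, Cd3d, Cd3g, Cd4, Trac) were present in both libraries at summed levels of 2820 and 2497 CPM, with 0 of 5 called. Of 4 Treg markers, Foxp3 was called higher and Ikzf2 lower, and Ctla4 and Il2ra were not called. Genes of other cells were also present: B and plasma cell markers summed to 7740 and 7178 CPM, nearly all of it Jchain. The 6 epithelial markers summed to 75.2 CPM in WT and 250.9 in Exon2KO, with 4 called higher and none at 0. In such bulk RNA, fewer cells of a type and less RNA per cell cannot be told apart.

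For the 17363 loci with 10 or more reads in the 2 libraries combined, the division of reads was set against the scaled library sizes with an exact binomial test (2-sided, Benjamini-Hochberg adjustment over these loci). Calls needed an adjusted p-value under 0.05 together with a log2 ratio (Exon2KO over WT, prior count 2) of 1 or more in either direction. The p-values are thus about a pair of libraries and not about the genotypes, and the intervals cover counting error only. Of the 23 receptors, 19 passed the minimum of reads, and 3 of these rose and 5 fell in Exon2KO. Over all loci tested, 7.31% were called higher and 6.81% lower, against 15.8% and 26.3% of the tested receptors. Of the 44 ligand loci, 26 passed the minimum, and 4 rose (15.4%) and 3 fell (11.5%). The median log2 ratio was 0.41 for tested receptors, 0.04 for tested ligands and 0.00 for all loci. The median size of the log2 ratio, without regard to sign, was 0.91 for receptors, 0.55 for ligands and 0.34 for all loci. Genes with many reads pass the binomial test more easily than genes with few, so these shares are descriptions.

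**Figure D1:**
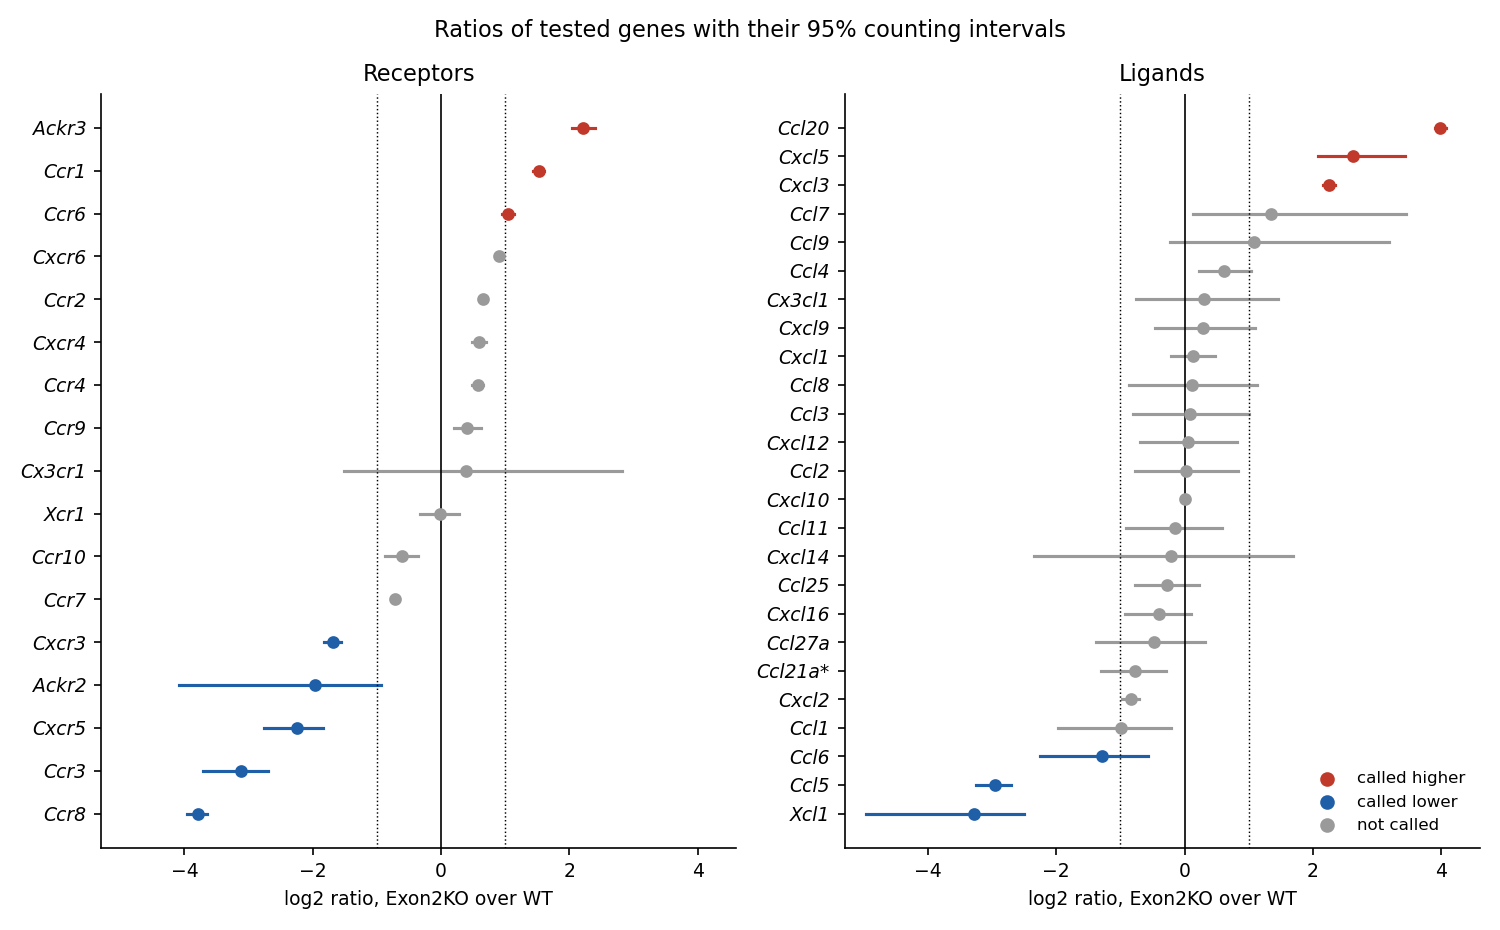
Log2 ratio of Exon2KO over WT for the tested receptors (left) and ligands (right) but 1, with its 95% interval from counting error; dotted lines mark a ratio of 2-fold, and red and blue mark genes called higher and lower. Ackr3 and Ccl20 head the panels and Ccr8 and Xcl1 stand at the bottom. Ccl21a* is the copy on scaffold JH584294.1, and Ccr1l1 and Ccl28, with 3 and 0 reads in WT, are not drawn.

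Among the receptors that fell, Ccr8 had the lowest ratio. Ccr8 (ENSMUSG00000042262, chromosome 9, 120092114 to 120094906, plus strand, GRCm38) encodes the receptor for Ccl1 and Ccl8 and is a known marker of Treg cells in tissues and tumours. It had 5168 reads in WT and 378 in Exon2KO, or 329 and 23.6 CPM. The log2 ratio was -3.79 (95% interval -3.95 to -3.65), a level 13.9-fold lower in Exon2KO. In WT it took 12.6% of all receptor reads (95% Wilson interval 12.2 to 12.9).

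Ccr3, the eotaxin receptor known from eosinophils and some T helper type 2 cells, had 339 reads in WT and 38 in Exon2KO. Its log2 ratio was -3.12 (-3.71 to -2.70). Cxcr3, the receptor for the interferon-induced ligands Cxcl9 and Cxcl10 and a mark of type 1 T cells, had 2099 and 661 reads and a ratio of -1.69 (-1.82 to -1.57). Both genes were expressed in each library well above the limit that a count of 0 allows, and both were lower in Exon2KO.

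Cxcr5, which guides B cells and follicular T cells to follicles, had 230 reads in WT but 48 in Exon2KO (log2 ratio -2.24, -2.77 to -1.83). The B cell gene Ms4a1 fell beside it, from 47 to 10 reads, while Cd79a (1244 and 990) and Jchain (120089 and 113723) were not called. Of the 4 genes of the B and plasma cell list, 2 were called lower, and the part of such cells in the Cxcr5 result was not tested. Bcl9l, which overlaps Cxcr5 on the opposite strand, had 46 and 70 reads. Ackr2, a scavenger of inflammatory CC chemokines, was called lower on few reads, 25 in WT and 5 in Exon2KO (-1.97, -4.09 to -0.94), and this call was lost at an assumed relative spread between samples of 0.2.

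The 3 receptors that rose were Ackr3, Ccr1 and Ccr6, with Ackr3 the highest. Ackr3 (ENSMUSG00000044337, chromosome 1, 90203980 to 90216751, plus strand) encodes an atypical receptor that takes up Cxcl12. The WT library held 331 Ackr3 reads against 1569 for Exon2KO (log2 ratio 2.21, 2.05 to 2.39). Its level per gene length, 6.30 CPM per kilobase in WT, was 29.3 in Exon2KO. Of the 6 epithelial markers, 4 were called higher, and Epcam and Krt20 were not called. Of 5 endothelial and stromal markers, 4 could be tested, and 1 of these, Cdh5, was called higher. Cdh5 had 0 reads in WT and 15 in Exon2KO, and so passed the minimum through the Exon2KO library alone. The part of such cells in the Ackr3 result was not tested.

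Ccr1 (ENSMUSG00000025804, chromosome 9, 123962124 to 123968692, minus strand), a receptor for Ccl3, Ccl5 and related ligands best known from myeloid cells, had 1633 reads in WT and 4775 in Exon2KO. Its log2 ratio was 1.52 (1.44 to 1.60). Among the macrophage and monocyte markers, Csf1r had 14 and 6 reads, Adgre1 1 and 2, Cd68 168 and 243, and Lyz2 317 and 405. Of the 5 markers listed, 4 could be tested and 0 were called. The summed level of the list was 33.9 CPM in WT and 42.2 in Exon2KO. Ccr1 was at 104 and 299 CPM, and CPM is not corrected for gene length. The part of such cells in the Ccr1 result was not tested. Neutrophil markers (S100a8, S100a9, Csf3r, Ly6g) had 3 and 14 reads in all.

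Ccr6, the receptor for Ccl20 and a mark of T helper type 17 cells, had 1355 reads in WT and 2833 in Exon2KO. Its log2 ratio of 1.04 lies just past the threshold, and its interval (0.94 to 1.13) spans it. When a relative spread between samples (biological coefficient of variation, BCV) of 0.2 was assumed, its adjusted p-value by edgeR's exact test was 0.135 and the call was lost.

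The remaining tested receptors were not called. Ccr7, which brings T cells to lymph nodes, was the receptor with the most reads in WT, 13057, and had 8082 in Exon2KO (-0.72, -0.76 to -0.68). Ccr2, which serves monocytes and activated T cells, had 6942 and 11145 reads (0.66, 0.61 to 0.70). Cxcr6, a receptor of tissue-resident T cells, had 4734 and 9053 reads (0.91, 0.86 to 0.96). Cxcr6 was called with library totals as the scaling, at a ratio of 1.01. Ccr4, a receptor of skin-homing and type 2 T cells, had 2124 and 3209 reads (0.57, 0.49 to 0.65). Cxcr4, the receptor for Cxcl12, had 1161 and 1778 reads (0.59, 0.48 to 0.70). For these 5 genes the counting interval excluded 0, yet the differences were smaller than the 2-fold used for a call.

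The gut homing receptors were not called. Ccr9, which answers to Ccl25 in the small intestine, had 335 and 453 reads (0.41, 0.20 to 0.62), and 20.1% of the 50-base windows of its transcripts occur in transcripts of other genes. The span of its locus also overlaps that of Lztfl1 on the opposite strand (613 and 1069 reads). Without stated use of strand, reads from any stretch that both share cannot be told apart. Ccr10, the receptor for Ccl27 and Ccl28, had 304 and 202 reads (-0.61, -0.88 to -0.36). Xcr1, known from cross-presenting dendritic cells, had 184 and 185 reads, with no detectable difference at this depth (-0.02, -0.32 to 0.28). Of the dendritic cell markers, Zbtb46 had 548 and 140 reads and was called lower, Flt3 had 16 and 22 and was not called, and Itgax had 0 in both; their summed level was 35.9 CPM in WT and 10.1 in Exon2KO. Their part in the Xcr1 and Ccr7 values was not tested. At the low end, Cx3cr1 had 4 and 6 reads, Ccr1l1 3 and 11 (95% interval of the log2 ratio -0.07 to 4.33) and Ackr4 4 and 0. The neutrophil receptors Cxcr1 and Cxcr2, and Ackr1, had 0 reads in both libraries.

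Per gene length, the order of the receptors differed between the libraries. In WT the highest levels were those of Ccr7 (421 CPM per kilobase), Ccr8 (280), Cxcr6 (156), Cxcr3 (77.3), Ccr2 (65.4) and Ccr4 (43.8). In Exon2KO, Cxcr6 (293) and Ccr7 (256) led, followed by Ccr1 (105), Ccr2 (103), Ccr6 (76.4) and Ccr4 (64.9). Ccr8, at the 98.7th percentile of protein-coding genes with a read in WT, was at the 85.0th in Exon2KO. Without replicates, whether neighbours in these orders differ beyond the spread between samples is unknown. Receptor reads summed to 2620 CPM in WT and 2891 in Exon2KO.

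**Figure D2:**
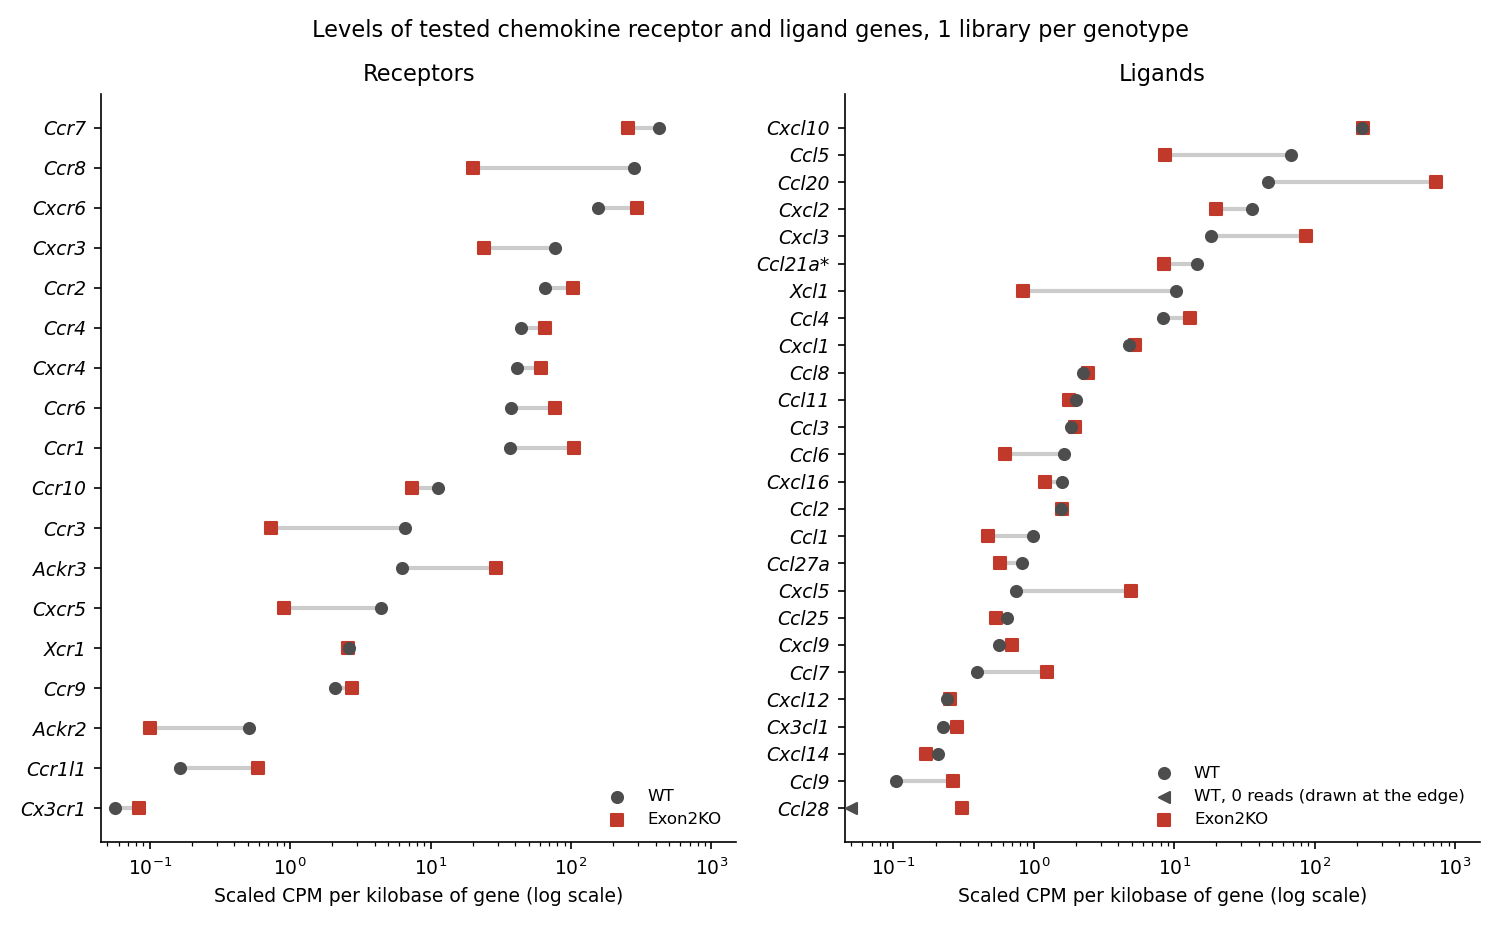
Level of the tested receptors (left) and ligands (right) but 1, in scaled CPM per kilobase of gene on a log axis, in order of the WT level; circles are the WT library and squares the Exon2KO library, 1 library each. Ccr8 moves from 280 to 20.1 and Ccl20 from 46.2 to 734, while Cxcl10 stays at 218 and 219. Ccl21a* is the copy on scaffold JH584294.1, and Ccl28, with 0 reads in WT, is drawn at the edge.

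Among the ligands, Ccl20 stood apart from the rest. Ccl20 (ENSMUSG00000026166, chromosome 1, 83116766 to 83119167, plus strand, GRCm38) encodes the ligand of Ccr6 and is known to be made by gut epithelium and by T helper type 17 cells. It had 1031 reads in WT and 16679 in Exon2KO, or 65.7 and 1043 CPM. The log2 ratio was 3.99 (3.90 to 4.08), a level 15.9-fold higher in Exon2KO. Its level per gene length reached the 99.6th percentile of protein-coding genes with a read in Exon2KO, from the 92.2nd in WT.

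Of the 6 epithelial markers, 4 were called higher, as Ccl20 was. Krt8 rose from 160 to 1604 reads, Krt19 from 81 to 1430, Krt18 from 118 to 277 and Vil1 from 9 to 56. Krt20 had 31 and 36 reads. Epcam went the other way, from 782 to 609 reads (log2 ratio -0.39, -0.54 to -0.23), and neither gene was called. The 6 epithelial markers summed to 75.2 CPM in WT and 250.9 in Exon2KO, and Ccl20 was at 65.7 and 1043 CPM. CPM is not corrected for gene length, so these values are not ranked against each other. The part of epithelial cells in the Ccl20 result was not tested.

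The 250 bases before the start of Ccl20 (RefSeq, GRCm38.p6, chr1:83116516-83116765, plus strand) are shown because this gene had the highest ratio of the members with reads in both libraries. They were searched on both strands for 5 short motifs: GGG, then NN, then TTTCC (a form of the NF-kB site), TGANTCA (AP-1), NAGGTCA (a site of ROR and other nuclear receptors), TGTTTAC (forkhead factors) and TATAAA (the TATA box). Capitals mark matches, here a ROR site 174 to 168 bases before the start and an NF-kB motif 80 to 71 bases before it, both on the minus strand.
Ccl20: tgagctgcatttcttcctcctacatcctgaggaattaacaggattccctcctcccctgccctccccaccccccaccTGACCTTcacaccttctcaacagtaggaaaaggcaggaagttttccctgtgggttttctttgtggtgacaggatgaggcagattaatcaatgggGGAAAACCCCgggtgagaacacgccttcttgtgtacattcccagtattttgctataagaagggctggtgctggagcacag
The same window before Ccr6, its receptor, held a ROR site 44 to 38 bases before the upstream of its 2 starts. The 120 bases that end at that start (chr17:8235923-8236042, plus strand) are shown for comparison.
Ccr6: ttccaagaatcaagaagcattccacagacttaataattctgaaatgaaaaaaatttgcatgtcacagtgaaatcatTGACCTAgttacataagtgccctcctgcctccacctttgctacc
Among 53 windows of members the ROR site was in 15, among them 5 of 24 windows of genes not called and 1 of 6 of genes called lower. The NF-kB motif occurs in 1.41% of 32851 RefSeq windows of that length and the ROR site in 14.0%. A match is a stretch of letters, and binding was not measured.

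Cxcl3 and Cxcl5, ligands of the neutrophil receptor Cxcr2, also rose. Cxcl3 (ENSMUSG00000029379, chromosome 5, 90786103 to 90789600, plus strand) had 998 reads in WT. In Exon2KO it had 4833, and the log2 ratio was 2.25 (2.15 to 2.35). Cxcl5, known from epithelium, went from 22 to 148 reads (2.62, 2.07 to 3.44). Of the 6 epithelial markers given above, 4 rose as well, while Epcam (782 and 609 reads) and Krt20 (31 and 36) were not called. The part of epithelial cells in the Cxcl3 and Cxcl5 results was not tested. Cxcl1 and Cxcl2 of the same group were not called: Cxcl1 had 141 and 157 reads (0.13, -0.21 to 0.47) and Cxcl2 had 1160 and 659 (-0.84, -0.98 to -0.70). Cxcl2 and Cxcl3 share some sequence, with 5.84% of the 50-base transcript windows of Cxcl2 and 4.29% of those of Cxcl3 found in another gene, so a few reads may be divided wrongly between them.

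The bases before the starts of Cxcl1, Cxcl2 and Cxcl3 are shown because these neighbours have like promoters and unlike ratios. Each line gives the 120 bases before the RefSeq start on the plus strand of GRCm38.p6, at chr5:90785981-90786100 for Cxcl3, chr5:90891125-90891244 for Cxcl1 and chr5:90903779-90903898 for Cxcl2, with matches to the same motifs in capitals.
Cxcl3: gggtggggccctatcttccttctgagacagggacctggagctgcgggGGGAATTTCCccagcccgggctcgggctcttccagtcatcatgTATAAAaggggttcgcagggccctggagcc
Cxcl1: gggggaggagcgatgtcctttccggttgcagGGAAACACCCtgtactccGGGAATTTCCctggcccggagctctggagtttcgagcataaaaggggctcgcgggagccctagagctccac
Cxcl2: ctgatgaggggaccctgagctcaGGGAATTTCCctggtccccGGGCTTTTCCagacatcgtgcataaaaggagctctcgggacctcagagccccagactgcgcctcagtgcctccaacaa
All 3 hold the sequence GGGAATTTCC, 73 to 64 bases before the start in Cxcl3, 71 to 62 in Cxcl1 and 97 to 88 in Cxcl2. Cxcl1 and Cxcl2 have a second NF-kB match, and Cxcl3 alone has the exact letters TATAAA, 30 to 25 bases before the start. The set of RefSeq promoters used here held 53 windows of 46 member symbols. Of these windows, 6 held the NF-kB motif: those of Ccl20, Cxcl1, Cxcl2, Cxcl3, Ccl9 and Ccr3. These genes had ratios in both directions, from -3.12 for Ccr3 to 3.99 for Ccl20. No window of a member held the forkhead letters TGTTTAC, which occur in 3.17% of all windows. Ccl5, Cxcl5 and Cxcr5, which were called, have no entry in the promoter set used here, which does not cover every member.

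Ccl28, a mucosal ligand of Ccr10 known from colon epithelium, had 0 reads in WT and 24 in Exon2KO, at least 7.85-fold higher against 3 reads in WT. It passed the minimum of reads through the Exon2KO library alone, and the part of epithelial cells, of whose 6 markers 4 rose, was not tested.

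Of the ligands that fell, Ccl5 had the most reads. Ccl5 (ENSMUSG00000035042, chromosome 11, 83525778 to 83530518, minus strand), a ligand of Ccr1 and Ccr3 made by cytotoxic and memory T cells, had 1025 reads in WT and 133 in Exon2KO. Its log2 ratio was -2.95 (-3.24 to -2.71), a level 7.85-fold lower. Xcl1, the ligand of Xcr1 made by activated CD8 T cells and natural killer cells, fell from 84 to 7 reads (-3.28, -4.97 to -2.51). Ccl6, a ligand of Ccr1, fell from 46 to 18 reads (-1.29, -2.25 to -0.57), a call that was lost at an assumed BCV of 0.2.

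Markers of CD8 T cells and natural killer cells were given the same test. Cd8a fell from 23 to 6 reads and Ncr1 was called higher at 0 and 10 reads (at least 3.27-fold against 3 reads), having passed the minimum through the Exon2KO library alone, while Cd8b1 (138 and 91) and Klrb1c (15 and 18) were not called. Their summed level was 11.2 CPM in WT and 7.82 in Exon2KO. Ccl5 was at 65.3 and 8.32 CPM, and CPM is not corrected for gene length. The part of these cells in the Ccl5 and Xcl1 results was not tested.

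Cxcl10, the interferon-induced ligand of Cxcr3, had the most reads of any ligand in WT and was not called. Its 7710 and 7898 reads gave a log2 ratio of 0.01 (-0.04 to 0.05), and with library totals as the scaling it was 0.11, with an adjusted p-value of 4.92e-06 by the exact binomial test. That scaling moved the median of all loci to 0.11 as well, and under the other alternatives the adjusted p-value of Cxcl10 lay between 0.479 and 1. Cxcl9, induced by the same signals, had 27 and 34 reads (0.29, -0.47 to 1.09). Ccl3 and Ccl4, which activated T cells and macrophages secrete, had 22 and 24 reads and 87 and 137 reads, with log2 ratios of 0.09 and 0.62. Ccl1, a ligand of Ccr8, had 37 and 18 reads (-0.99, -1.97 to -0.22) and lay just short of the threshold. That ratio uses the prior count of 2, and without a prior count the level was 2.09-fold lower in Exon2KO.

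The remaining tested ligands had between 5 and 92 reads in WT and none was called. Those of monocyte and eosinophil recruitment, Ccl2, Ccl7, Ccl8, Ccl11 and Ccl9, had 28, 5, 18, 34 and 5 reads in WT against 29, 16, 20, 31 and 13 in Exon2KO. The homeostatic ligands Cxcl12, Ccl25, Cxcl16 and Cx3cl1 had 31, 76, 76 and 14 reads against 33, 64, 58 and 18. At such counts the intervals are wide, as for Ccl2 (-0.78 to 0.83). Ccl21a on scaffold JH584294.1 had 92 and 54 reads (-0.77, -1.31 to -0.30) and the chromosome 4 copy 5 and 3. Of the windows of the chromosome 4 copy, 71.6% occur in other genes, so the division of reads between copies of Ccl21 is uncertain, as it is for Ccl27a (45.0%), which had 31 and 22 reads. Cxcl14 had 6 and 5 reads.

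The 18 ligand loci below the minimum of reads include 12 with 0 reads in both libraries. The 12 include Ccl19, Ccl24, Ccl26, Cxcl15, Cxcl17 and Ccl27b, besides scaffold copies and Ccl21b. The other 6 had between 1 and 8 reads over both libraries. Ccl22 and Ccl17, dendritic cell ligands of Ccr4, had 6 and 0 reads and 1 and 0 reads, and Cxcl13, the ligand of Cxcr5, had 6 and 2. Ccl12 had 3 in each library.

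Ccl20 also changed the make-up of the ligand reads. In WT, Cxcl10 took 60.1% of all ligand reads (95% Wilson interval 59.2 to 60.9) and Ccl20 8.04% (7.58 to 8.52). In Exon2KO, Ccl20 took 53.6% (53.0 to 54.1), Cxcl10 25.4% (24.9 to 25.9) and Cxcl3 15.5% (15.1 to 15.9). Ligand reads summed to 818 CPM in WT and 1948 in Exon2KO, and to 752 and 905 CPM without Ccl20. Without Ccl20 and Cxcl3 the sums were 688 and 602 CPM, so these 2 genes held the whole of the rise in the total.

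**Figure D3:**
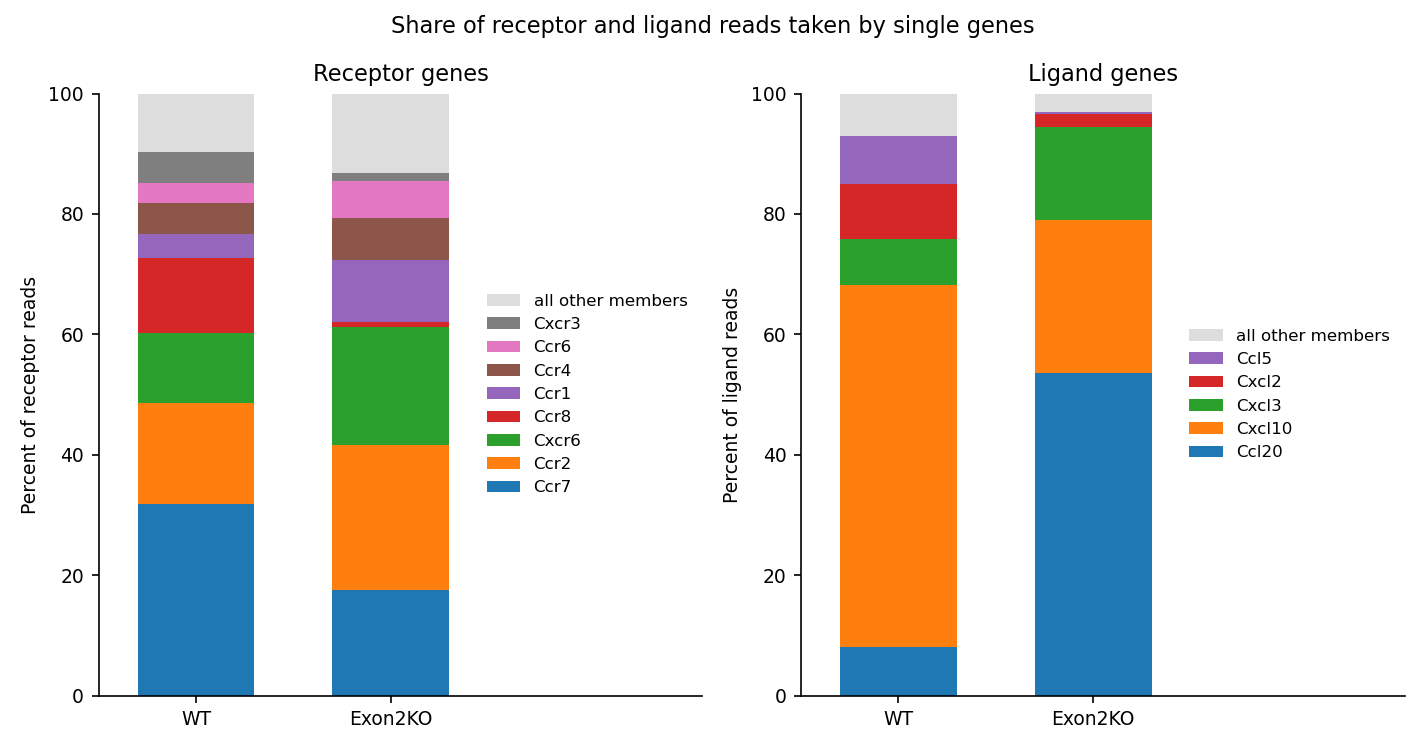
Percent of all receptor reads (left) and all ligand reads (right) taken by single genes in the WT and Exon2KO libraries, with the other members in grey. Among ligands, Ccl20 goes from 8.04% to 53.6%; among receptors, Ccr7 goes from 31.8% to 17.5% and Ccr2 from 16.9% to 24.1%.

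Many chemokine genes lie in clusters that arose by duplication, and 4 such clusters are described here. Their counts stand beside the 14.1% of all loci called in either direction, and with so few genes nothing is read from them. On chromosome 9, 7 receptor genes lie from Ccr9 to Ccr2 (123678439 to 124113557). Among them Ccr1 rose, Ccr3 fell and 5 were not called, with Ccr1l1 as the one member between Ccr1 and Ccr3. The CXC ligand cluster on chromosome 5 (90759360 to 90905938, 147 kb) runs Cxcl5, Cxcl3, Cxcl15, Cxcl1 and Cxcl2. Its 2 called genes, Cxcl5 and Cxcl3, are neighbours among the members, and Cxcl15 beyond them had 0 reads in both libraries. On chromosome 11 the cluster of Ccl5, Ccl9, Ccl6, Ccl3 and Ccl4 (83525778 to 83664683) held 2 genes that fell, Ccl5 and Ccl6, and 3 that were not called. The cluster from Ccl2 to Ccl1 on the same chromosome (82035571 to 82305690) held 0 called genes among 5 tested.

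**Figure D4:**
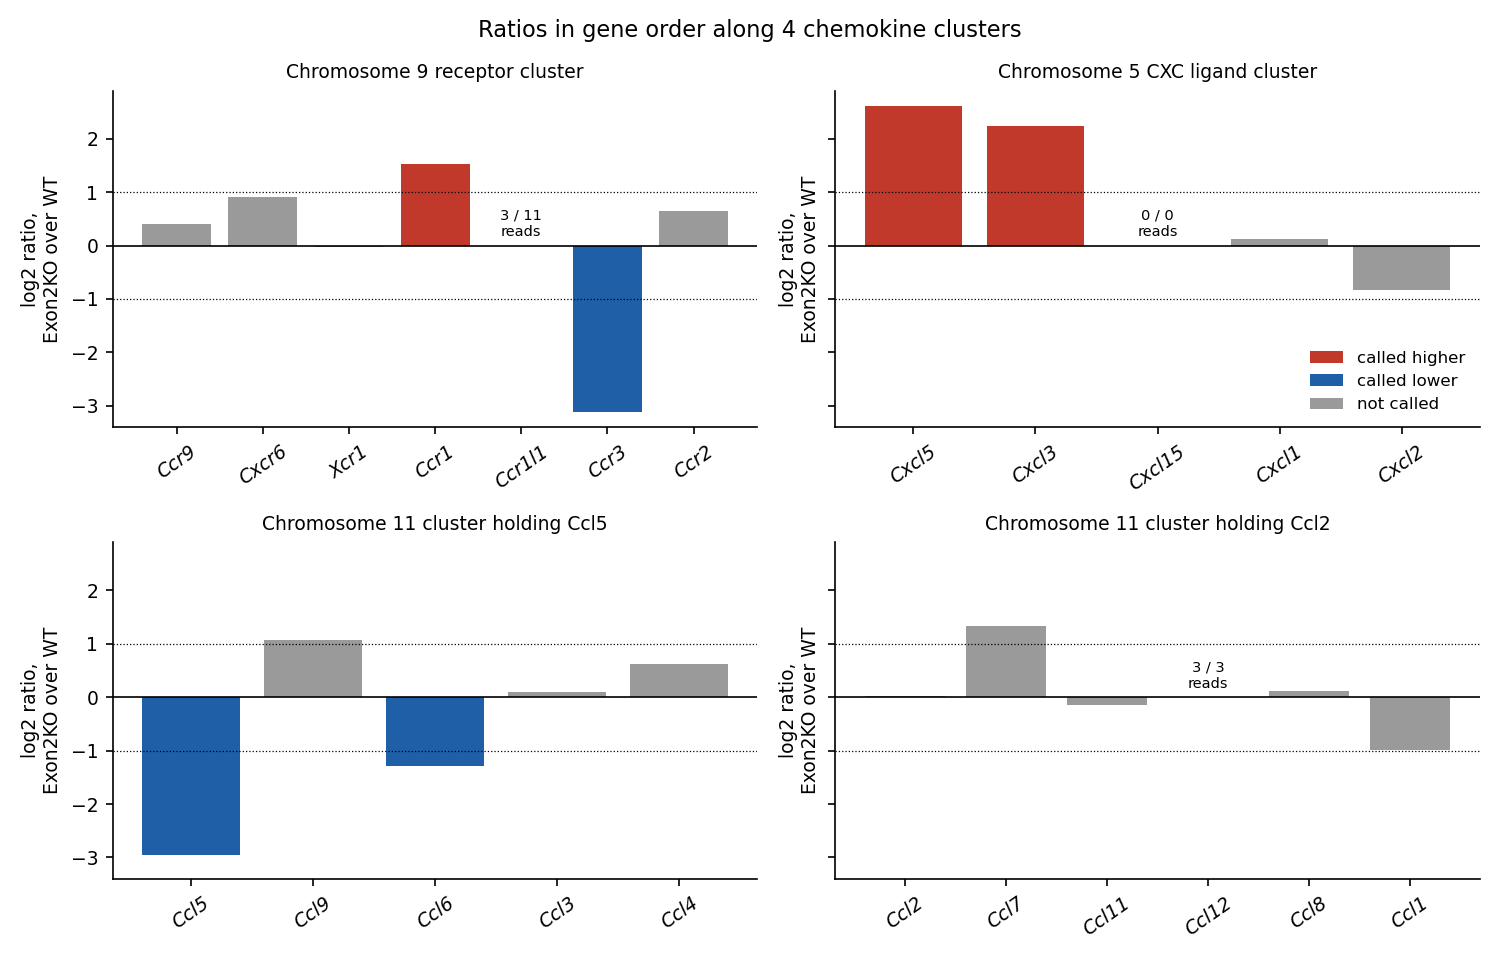
Log2 ratio of Exon2KO over WT in gene order along 4 clusters; red and blue bars are genes called higher and lower, grey bars were not called, and dotted lines mark 2-fold. Ccr1 and Ccr3 point in opposite directions within 1 cluster, and Cxcl5 and Cxcl3 rise while Cxcl1 and Cxcl2 do not; genes without a ratio show their WT and Exon2KO reads, and Xcr1 and Ccl2 lie close to 0.

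Ligands and receptors of the same axis were set side by side from a list of 44 known pairs. In 26 pairings both genes could be tested. Both rose for Ccr6 with Ccl20, where the Ccr6 call did not hold at a BCV of 0.2, and both fell for Ccr3 with Ccl5. They were called in opposite directions for Ccr1 with Ccl5 and Ccr1 with Ccl6, so the receptor was higher and these 2 ligands lower, though the Ccl6 call was likewise lost. In 12 pairings 1 partner was called, and in 10 neither, where 14.1% of all loci were called in either direction. Nothing is read from these counts. Cxcr3 fell while its ligand Cxcl10 was at 0.01, Ackr3 rose while Cxcl12 had 31 and 33 reads, and Ccr8 fell while Ccl8 had 18 and 20. Xcl1 fell while Xcr1 was at -0.02. Cxcl3 and Cxcl5 rose although the gene of their receptor Cxcr2 had 0 reads in both libraries. Genes recur across pairings, so the pairings are not independent.

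**Figure D5:**
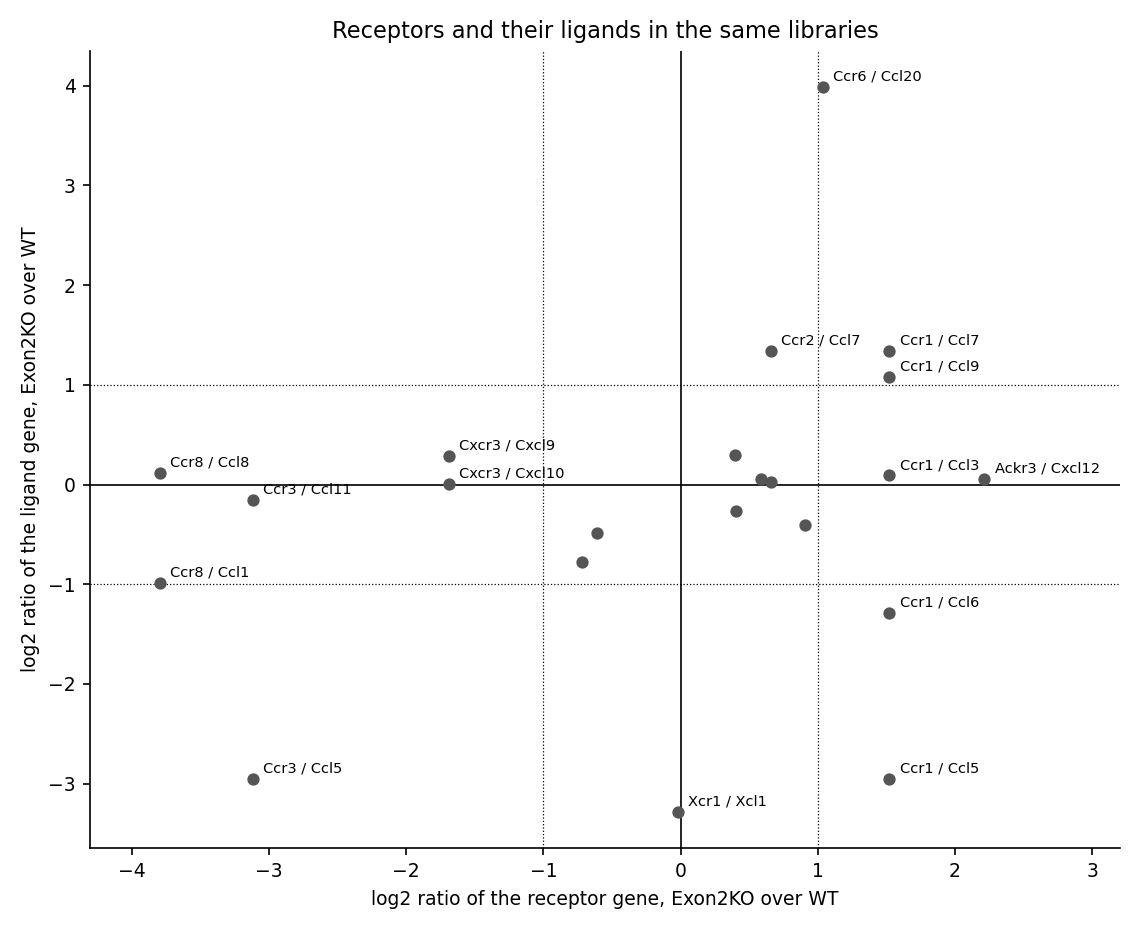
Log2 ratio of a receptor gene (horizontal) against that of its ligand (vertical) for 22 pairings with a ratio for both; each point is 1 pairing, and dotted lines mark 2-fold. Ccr6 with Ccl20 is the highest point at the upper right, above Ccr1 with the uncalled Ccl7 and Ccl9, Ccr3 with Ccl5 at the lower left, and Ccr1 with Ccl5 and with Ccl6 at the lower right.

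The genes that carry the receptor signal were taken from a list. Of 53 symbols listed for Gi proteins, arrestins, receptor kinases, Rgs proteins, small GTPases and integrin activation, 51 were found and 49 tested. None was called higher, 2 were called lower and 47 were not called, with a median log2 ratio of -0.14. Over all loci 7.31% were called higher and 6.81% lower. Rgs2, which shortens G protein signals, fell from 69699 to 17672 reads (-2.01, -2.03 to -1.98). Rgs16, of the same family, fell from 809 to 239 (-1.78). Rgs1, which limits T cell responses to chemokines, had 32374 and 40275 reads (0.29). The beta-arrestin gene Arrb1, whose product takes up active receptors, had 324 and 642 reads (0.96) and was not called. Gnai2, the main Gi alpha subunit of lymphocytes, had 8827 and 7587 (-0.25).

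A fold threshold of 1.5 called 21.7% of all loci, 10.8% higher and 10.9% lower, and gave 7 receptors higher and 7 lower, and 5 ligands higher and 6 lower. A threshold of 4 called 5.22%, 2.87% higher and 2.35% lower, and left 1 receptor higher and 3 lower, and 4 ligands higher and 2 lower. The calls also depended on the spread assumed between samples, which these 2 libraries cannot measure. At a BCV of 0.2, 6.42% of all loci were called by edgeR's exact test, 3.33% higher and 3.09% lower. At that spread 2 receptors were higher and 4 lower, and 4 ligands were higher and 2 lower, without Ccr6, Ackr2 and Ccl6. At a BCV of 0.4 the calls came to 0.945% of all loci (0.495% higher, 0.449% lower), and among the members to Ccl20 (higher) and Ccr8 (lower). In the authors' deposited table, 12 of 51 members with a value have an adjusted p-value below 0.05 (23.5%), against 4.58% of all genes with a value. All 12 were among the 15 called by the binomial test, and the other 3 were Ccr6, Ackr2 and Ccl6. Both analyses used the same 2 libraries, so this overlap is not an independent check.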

How the data were processed

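RNA from 1 WT and 1 Exon2KO library of colonic Treg cells was sequenced by the authors. Per the submitters' processing notes, HISAT2 2.0.5, StringTie 1.3.3b, featureCounts 1.5.0-p3 and DESeq2 1.16.1 and the build mm10 were used, with no roles given, and the use of strand is not given in the sources used here. Raw counts of reads for each gene, as deposited, are the input here. The authors also deposited FPKM values, a scaled count signal, a log2 fold change, p-values and adjusted p-values, of which only the adjusted p-values are quoted. Counts were scaled with TMM factors (edgeR 4.0.16, R 4.3.3). The binomial tests, Clopper-Pearson intervals and Wilson intervals used scipy 1.17.1, with p-values adjusted in statsmodels 0.14.6, and were tested on simulated data. Log2 ratios used a prior count of 2. Levels are scaled CPM divided by the deposited gene length. Where a library had 0 reads, the bound was computed against 3 reads, and intervals cover counting error only, since reads are not independent molecules.

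edgeR's quasi-likelihood test needs replicates and was not run. Members called in either direction with 50 or more reads in 1 library, and the 6 receptors and 6 ligands with the highest WT level, are given in full. Members and lists were chosen with earlier results of these data known. Of the marker lists, that of endothelial and stromal cells is set beside Ackr3 only. It summed to 62.4 CPM in WT and 55.4 in Exon2KO, with Cdh5 called higher at 0 and 15 reads, through the Exon2KO library alone. Promoters were read from a RefSeq table of GRCm38.p6. Shared windows came from GENCODE M21 transcripts. Alternatives covered scaling, minimum of reads, fold threshold, assumed spread, tested biotypes and prior count. A few genes, 1 of them a receptor, are counted in totals but are not reported by name here or drawn.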

Additional observations from a re-analysis of the deposited data

How the results depend on the processing

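The 4 counts of called members were 3 receptors higher and 5 lower, and 4 ligands higher and 3 lower. They stayed within 1.5 times under the other scalings, the other minimums of reads and protein-coding genes alone. With a prior count of 0.5, 4 ligands were called lower, and the other counts did not change. A fold threshold of 1.5 gave 7 receptors higher and 6 ligands lower, and a threshold of 4 gave 1 receptor higher and 3 lower, as the thresholds imply. An assumed BCV of 0.4 gave 0 receptors higher, 1 receptor lower, 1 ligand higher and 0 ligands lower, by edgeR's exact test. The median log2 ratio of the ligands changed sign, from 0.04 to -0.0040 with no minimum of reads and to -0.15 with a minimum of 50 reads, since other ligands were then counted. That of the receptors lay between 0.40 and 0.51 in all alternatives run for it. Library totals as scaling moved the median ligand ratio to 0.14 and that of all loci to 0.11. Of 19 genes given in full, 12 were called, and of these 10 lost their call at a BCV of 0.4, all but Ccl20 and Ccr8, and 1 (Ccr6) at 0.2. None of the 19 changed direction under any alternative. Foxp3 was past the threshold except at a BCV of 0.4 and a fold threshold of 4. Depth limits genes with few reads to wide intervals. No paired analysis was possible because there is a single library per genotype, and for that reason no library could be left out.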

Other observations

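Chemokine-related genes whose names the rule does not take were listed separately. Of 10 such genes, 6 had enough reads for the test, 0 were called higher and 1 lower by the exact binomial test. Over all loci 7.31% were called higher and 6.81% lower. Cd74, the invariant chain of MHC class II and a receptor for Mif, fell from 11586 to 5335 reads (log2 ratio -1.15, 95% interval -1.19 to -1.10). Mif itself, a cytokine with chemokine-like activity, had 3348 and 3175 reads (-0.10), and Ccrl2, an atypical receptor that presents chemerin, had 3202 and 2072 (-0.65, -0.74 to -0.57). Cklf had 1138 and 1337 reads (0.21). The chemerin gene Rarres2 had 20 and 25 reads and Gpr35 21 and 15, with no detectable difference at this depth. The platelet chemokine genes Pf4 and Ppbp had 0 reads in WT, with 2 and 0 in Exon2KO. Cxcl11, annotated as a polymorphic pseudogene and therefore outside the rule, had 7 and 6 reads.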
